A study of Mus musculus with 26 samples.

Results

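A CpG dinucleotide reads the same on both DNA strands, so that each CpG carries a cytosine on the plus strand and a cytosine on the minus strand. The CpG pairs described here are the autosomal CpGs whose plus and minus cytosines were both listed, at neighbouring positions, with at least 20 reads each in at least 10 of the 20 offspring libraries. Of 2929001 autosomal CpGs listed on at least 1 strand, 172226 (5.88%) met this rule. A further 772105 (26.4%) had enough reads on 1 strand only, and 796201 (27.2%) were listed on both strands at any coverage. The rule used coverage and position but no methylation value.

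The pairs were read from reduced-representation bisulfite sequencing (RRBS) of epididymal sperm from 26 male mice, made to compare sperm DNA methylation after transplantation of cultured spermatogonial stem cells (SSCT) with that of control males. All libraries were labelled DBA/2J, and each offspring group held 5 mice at 3 months of age. Control F1 mice were sired by control DBA/2J males and SSCT F1 mice by transplanted males, SSCT F2/M mice descended from SSCT F1 mothers and SSCT F2/P mice from SSCT F1 fathers, and control F1 is the only control of either generation. The F0 groups, 3 mice each at 16 to 18 months, were control F0 (DBA/2J males) and SSCT F0. The SSCT F0 mice were sterile W/W-v recipients, whose sperm came from neonatal DBA/2J donor cells grown in culture, their libraries were made from less DNA than the others, and the SSCT offspring go back to 3 such males.

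Libraries held between 45609751 and 87705464 reads at CpG positions. Offspring libraries covered 1995475 to 2232455 CpG positions, while SSCT F0 libraries covered down to 305946. Accordingly, 76056 to 138973 pairs had 20 reads on both strands in an offspring library, against 104284, 64048 and 3378 in SSCT F0 replicates 1, 2 and 3, whose mean plus strand methylation was 14%, 5.92% and 2.83%. SSCT F0 values are therefore given apart and took no part in the coverage rule or in the strand test. They were tested only against control F0, a comparison that also chose the F0 pairs named below. The groups follow the sample titles, but the treatment label of the SSCT F2/M mice reads WT and the study names the same offspring libraries differently in its clustering, so that each group comparison was repeated under its names. Results over all 20 offspring mice do not depend on these names.

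When DNA is copied, the new strand is unmethylated until the maintenance methyltransferase DNMT1, guided by UHRF1 to CpGs methylated on the old strand only, restores the symmetric state. A CpG methylated on 1 strand is called hemimethylated and is usually short-lived, and sperm no longer replicate their DNA. In RRBS, DNA is cut at CCGG by the enzyme MspI, the ends of the fragments are filled in, adapters are added, and bisulfite converts unmethylated cytosines only. The plus cytosine of a CpG is read from the left end of a fragment and the minus cytosine from the right end, so that both strands of a CpG come from separate reads of the same mouse. A base filled in at a fragment end is added in the library, so that a read of it is no measurement of the mouse.

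The sequences below show CCGG sites at chosen promoter pairs with and without a called strand difference. All were cut from the promoter windows of RefSeq on GRCm38.p6, are printed as the plus strand, 5′ to 3′, and carry capitals at the CCGG sites that bound a fragment. The windows at Gm11946 (chr11:3532643-3532734) and Osbpl7 (chr11:97050729-97050819), the latter an oxysterol-binding protein gene, hold CCGG sites with CpGs 48 bases apart that differed between strands in opposite directions. The windows at Alad (chr4:62519965-62520044), an enzyme gene of haem synthesis, and Smc6 (chr12:11265747-11265838 and chr12:11265636-11265790), a chromosome maintenance gene, hold sites 36, 48 and 122 bases apart at unmethylated CpGs that were not called.
Gm11946, 48 bases: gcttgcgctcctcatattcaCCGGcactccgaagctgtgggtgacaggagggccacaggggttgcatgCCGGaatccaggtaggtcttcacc
Osbpl7, 48 bases: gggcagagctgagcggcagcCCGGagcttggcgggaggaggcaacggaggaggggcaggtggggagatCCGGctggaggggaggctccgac
Alad, 36 bases: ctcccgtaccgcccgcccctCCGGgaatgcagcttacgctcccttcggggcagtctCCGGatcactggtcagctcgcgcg
Smc6, 48 bases: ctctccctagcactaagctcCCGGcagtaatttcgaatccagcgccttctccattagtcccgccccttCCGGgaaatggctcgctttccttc
Smc6, 122 bases: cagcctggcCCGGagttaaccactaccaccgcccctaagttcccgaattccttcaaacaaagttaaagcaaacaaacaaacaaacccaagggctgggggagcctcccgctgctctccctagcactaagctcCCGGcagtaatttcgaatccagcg

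Most CpG pairs were at the extremes of methylation and alike on both strands. By the mean of both strands over the offspring, 130021 pairs (75.5%) were under 10% methylated and 26799 (15.6%) over 90%, leaving 5233 at 10 to 30%, 6153 at 30 to 70% and 4020 at 70 to 90%. Mean methylation was 20.76% on the plus strand and 20.77% on the minus strand, and the median absolute difference between strands was 1.17 percentage points. Within a single library the strands were equal in 62.5% to 68.9% of pairs, differed by over 10 points in 17.5% to 20.2% and by over 25 points in 5.00% to 7.17%. The correlation of both strands across the pairs of a library was 0.917 to 0.936 over the 20 offspring, given as a description since pairs share libraries. Within a level class it was far lower. The mean over the offspring was 0.0952 under 10%, 0.0413 at 10 to 30%, -0.487 at 30 to 70%, -0.0534 at 70 to 90% and 0.0510 over 90%. The classes were cut by the mean of both strands, which itself favours low values.

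Which pairs differed between strands on average over the mice was asked with a logistic model of methylated and unmethylated reads with the mouse as a block. The F test was scaled by the spread between mice, and a pair was called at a Benjamini-Hochberg q under 0.01 with a mean difference over 10 points. Of 133720 pairs with both strands at 20 reads in 10 or more mice, 2292 were called, and these make up the background share of 1.71%. The plus strand was higher in 1121 (0.838%) and the minus strand in 1171 (0.876%). Calls were concentrated at intermediate methylation: 1705 of 5135 tested pairs at 30 to 70% were called (33.2%), against 167 of 4172 at 10 to 30%, 299 of 3318 at 70 to 90%, 0.102% of 99932 under 10% and 0.0898% of 21163 over 90%. A class mean between 30% and 70% can come from a fully methylated and an unmethylated strand, so that the class is partly set by the difference itself. The direction was the same in every measured mouse for 2008 of the 2292 called pairs.

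**Figure D1:**
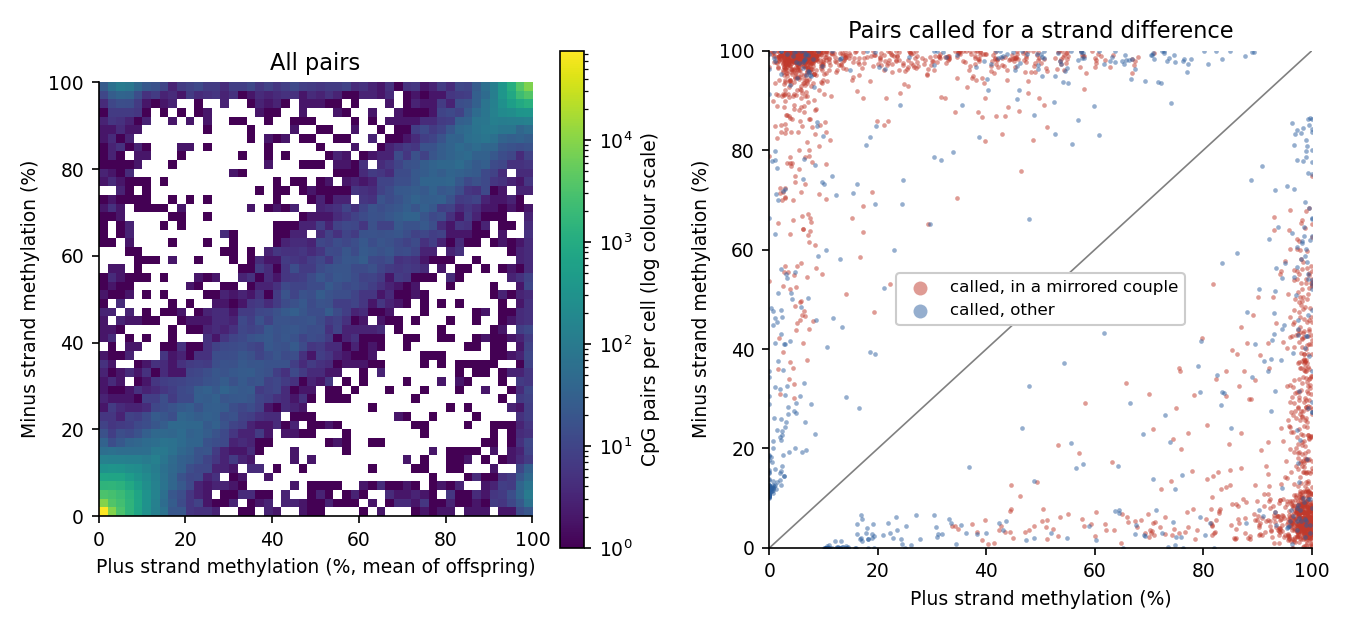
Mean methylation of the plus strand (x axis, %) against the minus strand (y axis, %) over the 20 offspring mice, for all 172226 CpG pairs (left, pairs per cell on a log colour scale) and for the 2292 called pairs (right, 1 point each; red, pairs in a mirrored couple; blue, other). Most pairs lie on the diagonal near 0 or 100%, whereas called pairs lie along the edges, with 1 strand near 0 or 100%.

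The large strand differences came in couples. Among called pairs with a difference over 25 points, a CpG with the plus strand higher was followed by a CpG with the minus strand higher 48 bases further along in 453 cases and 49 bases further along in 409. These 862 mirrored couples were defined after the values had been seen and are described without a test. They hold 1724 pairs, 1.00% of all pairs but 82.7% of the 2084 called pairs over 25 points, and 1515 of the 1707 called pairs over 50 points (88.8%). Of 500 plus-higher pairs that had a pair 48 bases to the right, 453 formed a couple there, and of 451 with a pair 49 bases to the right, 409 did. At any other distance from 2 to 150 bases no more than 2 such couples were found, and the opposite order was found at most 1 time at a distance. Where CpGs at this distance sit at the ends of 1 fragment, a read of 50 bases from 1 end reaches the CpG of the other end with its last bases. The part that read ends or the filled-in fragment ends have in the couples was not tested.

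**Figure D2:**
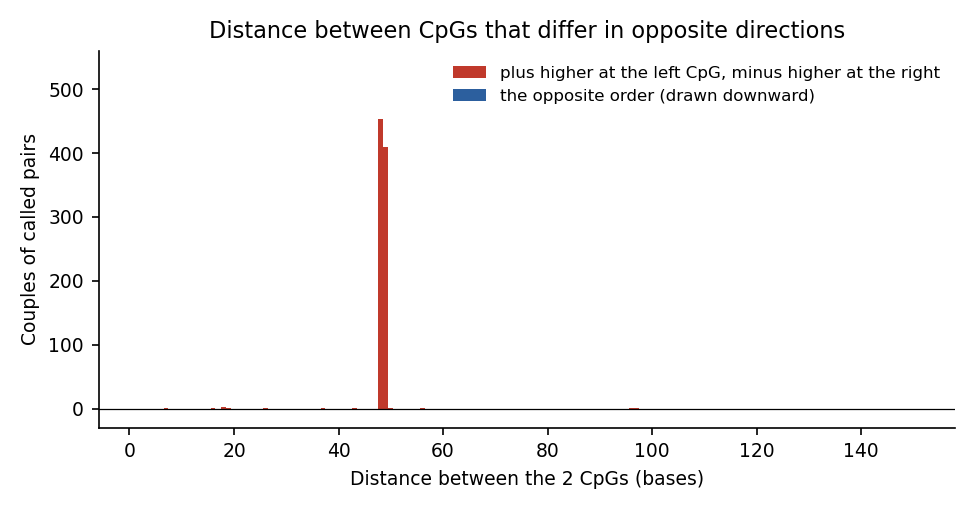
Number of couples of called pairs with a difference over 25 percentage points (y axis) by the distance between their CpGs (x axis, bases). Red bars count couples with the plus strand higher at the left CpG and the minus strand higher at the right, and blue bars, drawn downward, the opposite order. Red bars stand at 48 (453 couples) and 49 bases (409 couples), and hardly any couple is found elsewhere.

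At the left CpG of a couple the plus strand was 93.3% ± 12.2 methylated and the minus strand 15.4% ± 16.2 (SD, n = 862 couples). At the right CpG the plus strand was 15.1% ± 16.2 and the minus strand 93.3% ± 12.4. CpGs lying between the ends did not share the pattern: 598 pairs inside 423 couples were 90.7% methylated on the plus and 90.6% on the minus strand, and 3 of 590 tested were called. Median reads per offspring library were 39 on the plus and 45 on the minus strand at left CpGs, and 45 and 39 at right CpGs, above the median of 33 reads per strand over all pairs. The couples were spread over all 19 autosomes, with 22 to 71 on each. Of the couples, 556 (64.5%) lay inside a RefSeq gene span, compared with 79.3% of all pairs and 71.5% of pairs over 70% methylated.

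The couples were present in every offspring mouse. In the 20 libraries, 94.3% to 96.7% of the 512 to 794 couples measured differed by over 25 points in the mirrored direction at both CpGs. The couples were chosen on these same mice, which favours a high share in each of them. The control F0 mice, which took no part in choosing the couples, gave 95.5%, 93.7% and 94.6% of 646, 719 and 718 couples. SSCT F0 replicate 1 gave 90.7% of 410 couples and replicate 2 gave 48.5% of 68. In the latter the left CpGs were 69.3% and 16.2% methylated on the plus and minus strands, and the right CpGs 12.4% and 70.8%. SSCT F0 replicate 3 measured only 2 of the 1724 pairs.

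Of the 24 pairs with the largest differences in each direction that were measured in at least 15 mice, 23 belonged to a couple. At chr12:8896203 inside Gm33483 the plus strand was 100% methylated in each of 19 mice, while the minus strand was 0.359% ± 1.56 (SD) with a highest value of 6.82%, a difference of 99.6 points (SE 0.359, F test q = 1.5e-16). The strands did not overlap in any mouse. The facing CpG at chr12:8896251 showed the reverse, with the plus strand at 1.85% ± 3.57 (SD, 19 mice, 0 to 9.76%) and the minus strand at 99.0% ± 4.17 (81.8% to 100%). Near Sema5a, a semaphorin gene that guides axons, chr15:32707004 was 98.7% ± 2.88 on the plus and 0.369% ± 1.14 on the minus strand over 20 mice, and chr15:32707053, 49 bases on, was 3.12% ± 5.51 and 100%. These CpGs lay 10663 and 10712 bases outside the gene span.

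Genes of widely different functions were among those named. The plus strand was higher inside Dicer1, which encodes the nuclease that matures microRNAs, with 99.4% ± 1.68 against 2.09% ± 3.99 (SD, n = 19 mice) at chr12:104690706. It was also higher inside Htra1, a secreted protease gene (99.7% against 1.81%, chr7:130983698), Ppp2r2c, a phosphatase subunit gene (99.1% against 0.989%, chr5:36929891), Sart3, a splicing factor gene (99.6% against 2.08%, chr5:113759247) and Sec24b, a vesicle coat gene (99.4% against 2.13%, chr3:129986797). The minus strand was higher inside Atp2b4, a plasma membrane calcium pump gene (2.68% against 99.7%, chr1:133739279), Iho1, a gene for meiotic break formation (2.81% against 99.7%, chr9:108413369), Fxr1, an RNA-binding protein gene (3.08% against 100%, chr3:34036115), Gtf2e1, a subunit gene of the general transcription factor TFIIE (1.59% against 98.7%, chr16:37536101), and Syt2, a synaptotagmin gene (1.70% against 98.9%, chr1:134723111). These pairs were measured in 15 to 19 mice, and the same direction in each was a condition for naming them.

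The windows whose sequences are printed above show the couples at CCGG. At Gm11946 the left CpG (chr11:3532664) was 99.1% methylated on the plus strand, from 90.9% to 100% in 10 mice, and 6.05% on the minus strand, with a median of 0 and a highest value of 41.7%. The right CpG (chr11:3532712) was 9.47% on the plus strand (0 to 21.4%) and 99.3% on the minus strand (92.6% to 100%) in 11 mice. At Osbpl7 the left CpG (chr11:97050750) was 97.7% on the plus and 6.70% on the minus strand, and the right CpG (chr11:97050798) 17.3% and 90.4%, each with the same direction in 17 of 17 mice. Promoter windows held 8 of the 1724 mirrored pairs, and all 8 lay at CCGG, compared with 24.9% of the 25278 pairs in promoter windows. The sequence at the other couples was not analysed here.

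Outside the couples, 568 of 131996 tested pairs were called (0.43%), of which 208 differed by 10 to 25 points and 360 by over 25. The CpG 48 or 49 bases away in the facing position was listed on both strands for 237 of these 360 and differed in the other direction by over 25 points in 168. The largest of them was at chr6:127183588 inside Tpi-rs11 and 9330179D12Rik, where the plus strand was 0 in each of 17 mice and the minus strand 99.3% ± 2.82 (SD, 88.4% to 100%). Others named after their values were seen lay in Zfp367, a zinc finger gene, at chr13:64142240 (99.8% against 4.52%, 16 mice), in Uckl1, a uridine kinase-like gene, at chr2:181572410 (4.95% against 100%, 17 mice) and 56172 bases from Ccnd1, the cyclin D1 gene, at chr7:144996003 (98.9% against 4.53%, 19 mice). Without the couples, pairs at 30 to 70% were called in 209 of 3639 tests (5.74%).

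At unmethylated promoters smaller strand differences also followed the CCGG sites. A promoter window spans 250 bases before to 50 after a gene start, CCGG was searched on both strands, where it reads the same, and 6115 of 31396 autosomal windows held a pair. Among promoter pairs under 10% methylated, the 6008 at CCGG were 4.25% methylated on the plus and 4.25% on the minus strand, whereas the 18855 at other CpGs were 0.665% and 0.674%. The median absolute strand difference was 2.73 points at CCGG and 0.557 points at other CpGs, and 0.346% and 0.0139% of those tested were called. The share of pairs at CCGG rose with the strand difference, from 8.56% of pairs under 1 point to 22.3% at 1 to 2, 51.0% at 2 to 5, 87.4% at 5 to 10 and 97.0% over 10 points (162 of 167). Over all unmethylated promoter pairs it was 24.2%.

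The plus strand of a left cut-site CpG went down with the distance to the next CCGG on its right. It was 6.87% methylated at 20 to 29 bases, 5.69% at 40 to 47, 5.04% at 50 to 59, 3.63% at 80 to under 120 and 2.58% at 120 to 290 bases. The minus strand stayed between 4.21% and 4.43% at these distances and was 2.71% at 48 to 49 bases. At 48 to 49 bases the plus strand was higher in 20 of 20 mice, with a range of 4.12% to 6.36% against 2.00% to 3.44%, so that the strands did not overlap. At 120 to 290 bases the minus strand was higher in 20 of 20 mice. Right CpGs gave the same picture with the strands exchanged, with 2.59% on the plus and 5.63% on the minus strand at 48 to 49 bases and 4.16% and 2.66% at 120 to 290 bases. Single sites followed this only in part: the left CpG of Alad was 6.40% on the plus and 8.18% on the minus strand, and that of Smc6 at 122 bases 2.37% and 5.21%, with mice overlapping in each case. At this Smc6 CpG both medians were 0 and the highest minus strand value was 45%. Its plus strand was higher in 3 of 16 mice and its minus strand in 2.

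**Figure D3:**
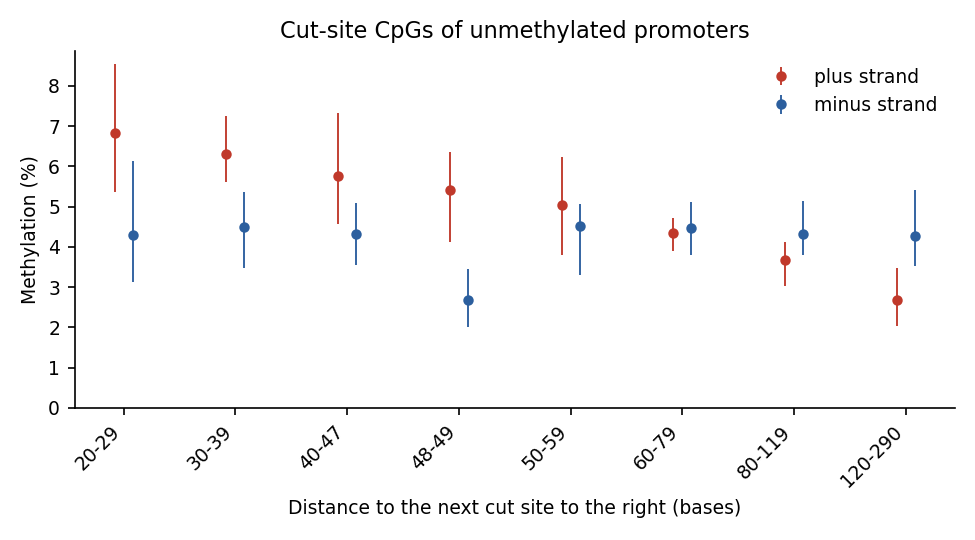
Methylation (y axis, %) of the left CpG of CCGG-to-CCGG fragments in unmethylated promoters, by distance to the next CCGG to the right (x axis, bases), on the plus strand (red) and the minus strand (blue). Points are the median of the 20 offspring mice and bars their full range; the plus strand falls with distance, and the minus strand is lowest at 48 to 49 bases.

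Averaged over all pairs, the strands were almost equal in each mouse. The mean plus strand minus minus strand difference over 20 mice was -0.0154 ± 0.0217 points (SD, range -0.0528 to 0.0390), and the minus strand was higher in 16 of 20 mice (sign-flip permutation test over mice, two-sided, p = 0.00482, 95% interval -0.0256 to -0.00528). By level the difference was -0.215 points at 10 to 30% and -0.294 points at 70 to 90%, with the minus strand higher in 15 and 14 of 20 mice (adjusted permutation p = 0.0278 each). The other 3 classes did not pass the test, with means of -0.00419, -0.0416 and 0.0221 points. The overall mean was 0.0157 points (sign-flip permutation p = 0.496) in the 8260 pairs measured in all 20 mice. With the reads of all pairs pooled on each strand, the mean was -6.37 points (permutation p = 1e-05, the smallest these permutations can give). The pair at chr2:98666503 took 7.92% of all reads at pairs, with 561 on the plus and 23274791 on the minus strand, methylated at 12.4% and 71.0%. Without it, the mean of the pair differences weighted by their reads was -0.117 ± 0.0718 points, minus higher in 19 of 20 mice. That mean was formed differently from the pooled value. How much of the -6.37 points came from this pair was therefore not measured. In the control DNA added to each library, the unmethylated control read a median of 0.960% on the plus and 0.583% on the minus strand, plus higher in 23 of 26 libraries, and the methylated control 98.6% and 98.7%.

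Averaged over pairs, and with strand differences common to all mice counted in, strands of 1 mouse were no more alike than the same strand in different mice. With couples left out and binomial counting error subtracted, the root mean square difference between the strands of 1 mouse was 10.2 points ± 0.449 (SD, n = 20 mice), against 9.37 ± 0.280 between 2 mice of a group on 1 strand. The binomial error takes each read as a separate molecule. Whether reads were copies of 1 molecule was not tested, so that these values can still hold sampling error. The strands were closer than the mice in 0 of 20 mice. At 30 to 70% methylation the values were 32.6 and 25.5 points. Under 10% they were 6.96 and 6.84, and over 90% 8.31 and 8.29, with the strands closer in 7 and 11 of 20 mice. Of the squared strand difference, mice shared 98.5% in the couples, 55.7% in the other pairs at 30 to 70% and 0.701% in those over 90%. Such a shared part adds to the difference between the strands of 1 mouse but cancels between mice on 1 strand. Whether strands of 1 mouse were more alike once the shared part is removed was not tested. The couples were chosen, and the 30 to 70% class was partly set, by the strand difference in these mice, which favours high shares there.

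A difference between mice on 1 strand was hardly seen on the other. Over the 40 within-group pairings of offspring mice, 2 mice differed by 9.38 points on 1 strand (root mean square, counting error subtracted in the same way, couples left out). Of this, 1.04 points, or 1.24% of the square, were shared by both strands. The correlation of the plus strand difference with the minus strand difference of the same CpG was 0.0105 on average, from -0.0101 to 0.0277. At 30 to 70% methylation, 4.18 of 25.5 points were shared (2.69% of the square). CpGs on the same strand were more alike than the strands of 1 CpG: among CpGs of 10 to 90% methylation the correlation with a CpG 2 to 10 bases away was 0.470 on the same strand (0.301 to 0.565 over mouse pairings) and 0.0503 on the other. It was 0.428 at 11 to 20 bases, 0.250 at 31 to 40 and 0.165 at 41 to 60 bases on the same strand. At 61 to 100 bases, beyond the read length, it was 0.0440 on the same and 0.0484 on the other strand. These correlations run across CpGs that share libraries, and neighbouring CpGs on 1 strand share reads.

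**Figure D4:**
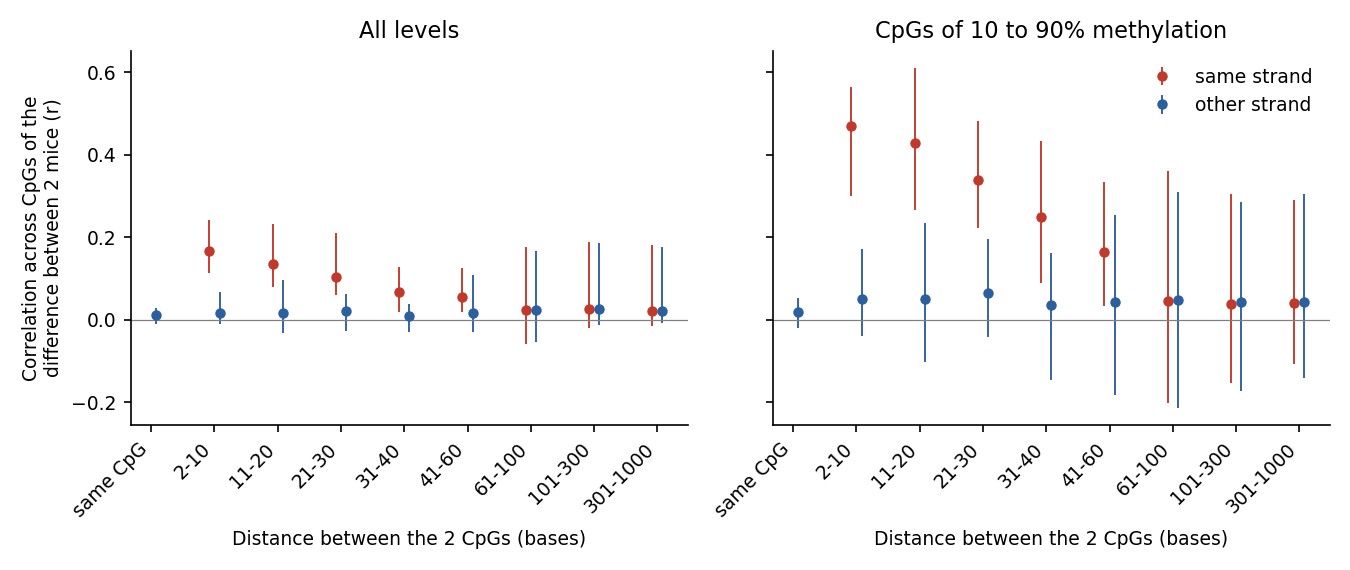
Correlation across CpGs (y axis, r) of the methylation difference between 2 mice of 1 group at a CpG with that at another CpG, by the distance between them (x axis, bases), on the same strand (red) or the other strand (blue), couples left out. Points are means over 40 mouse pairings and bars their full range; for CpGs of 10 to 90% methylation (right) the same strand gives 0.470 at 2 to 10 bases and 0.0440 at 61 to 100, and the other strand stays under 0.07 on average throughout.

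Strand discordance is the root mean square strand difference of a mouse after counting error was subtracted, with each read taken as a separate molecule. It was used to ask whether SSCT changed how alike the strands were. In control F1 it was 13.9, 13.8, 14, 14.3 and 13.4 points and in SSCT F1 14.2, 14.4, 15.1, 14 and 13.9, so that the groups overlapped. The difference was 0.458 points (95% interval -0.117 to 1.03, two-sided exact permutation p = 0.0794, adjusted 0.238, smallest possible 0.00794). SSCT F2/M mice gave 13, 14.1, 14.5, 13.8 and 13 points, -0.192 from control F1 (interval -0.948 to 0.564, exact permutation p = 0.587). SSCT F2/P mice gave 13.1, 13.6, 13.1, 13.7 and 13.9, -0.398 from control F1 (interval -0.893 to 0.0977, exact permutation p = 0.119). No comparison passed, the 3 share the control F1 mice, and under the study's clustering names all 3 turned in sign, to -0.205, 0.192 and 0.650 points in the same order (exact permutation p = 0.54, 0.587 and 0.143). Without the couples the SSCT F1 difference was 0.465 points with an unadjusted exact permutation p of 0.0317, a setting chosen after seeing the data. SSCT F0 replicates gave 12.5, 18.1 and 20.2 points against 14.4, 12 and 13.3 in control F0 (difference 3.69, interval -2.99 to 10.4, exact permutation p = 0.3, smallest possible 0.1), and the 2 highest are those with fewest pairs and lowest methylation.

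Group differences were then read on each strand with a chi-square test per position, Benjamini-Hochberg adjusted over all positions, at the coverage and call thresholds of the study (at least 10 reads in every library, q under 0.01 and a difference over 25 points). Over the whole table this called 0.463% of 596222 positions for SSCT F1, 0.421% of 663343 for SSCT F2/M, 0.431% of 694154 for SSCT F2/P and 5.8% of 81977 for SSCT F0. Of the CpG pairs with both strands tested, 289 of 67551 (0.428%), 304 of 79759 (0.381%), 334 of 84085 (0.397%) and 111 of 1687 (6.58%) were called on at least 1 strand. A pair has 2 cytosines that can be called, whereas the whole table counts single positions. Counted per cytosine, 0.218%, 0.195%, 0.203% and 3.85% were called in the pairs, lower shares than over the whole table. Called on both strands in the same direction were 3, 3, 3 and 18 pairs, or 1.04%, 0.987%, 0.898% and 16.2% of those called on either strand. In opposite directions on both strands were 2, 4, 4 and 1. Under the study's clustering names the 3 offspring comparisons gave 309, 304 and 296 pairs on at least 1 strand and 2, 3 and 3 on both.

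The other strand of the same CpG in the same mice did not follow the called strand. Where the called strand differed by a median of 28.7, 28.2 and 28.5 points in SSCT F1 and both SSCT F2 groups, the other strand differed by a median of 0, 0 and 1.17 points in that direction. It had the direction of the call in 49.3%, 49.2% and 54.5% of calls, and exceeded 25 points in 2.04%, 1.93% and 1.76%. For calls with another pair within 10 bases, the neighbour on the same strand differed by a median of 8.30 points (44 calls), 8.31 (55) and 13.2 (80) and had the called direction in 72.7%, 72.7% and 76.3%. With the reads of both strands summed, 14, 13 and 22 pairs were called. Scaled by the spread between mice (F test), 0 pairs were called on either strand in all 4 comparisons; at an unadjusted p under 0.05 and over 25 points it gave 77 to 95 pairs on the plus and 80 to 98 on the minus strand in the 3 offspring comparisons, with 0, 0 and 1 on both, and 5 and 14 pairs in SSCT F0 with 0 on both.

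**Figure D5:**
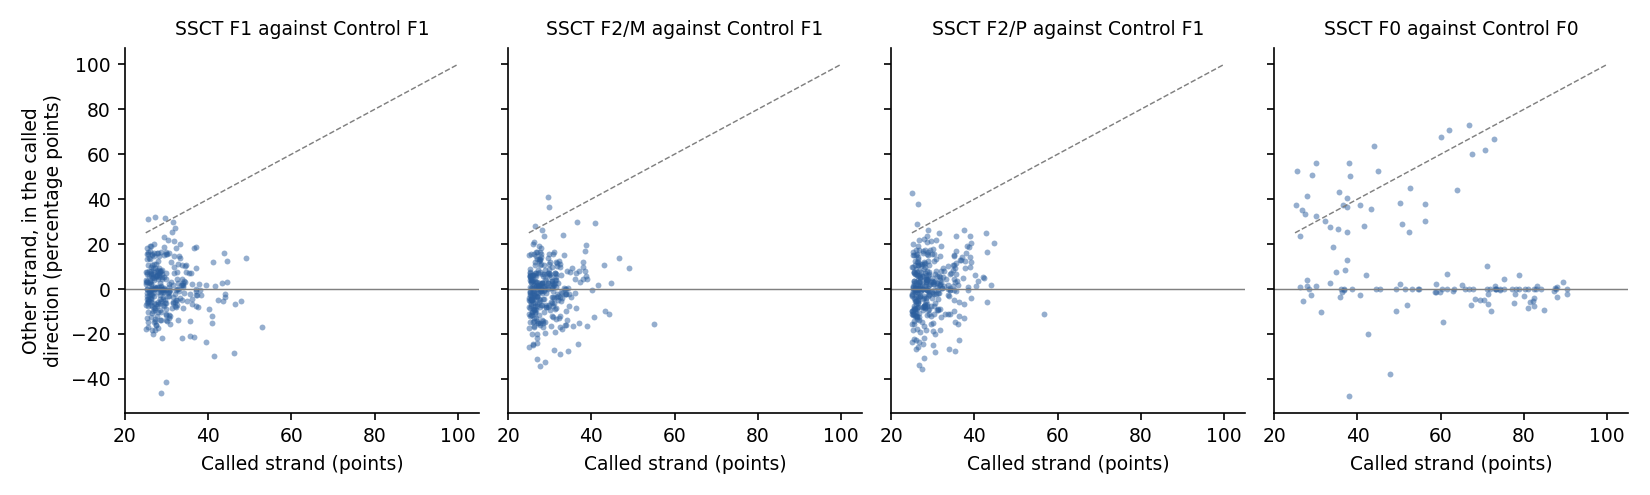
For each strand call of a group comparison (1 point each), the difference on the called strand (x axis, percentage points, taken as positive) and on the other strand of the same CpG (y axis, positive in the called direction); the dashed line marks equal differences. In each of the 3 offspring comparisons 6 points exceed 25 points on the y axis, and in the F0 comparison 36 of 130 do.

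The named pairs called on both strands overlapped between the mice of the groups. At chr2:73364197 inside Gpr155 and Gm13709 the plus strand read 65.5%, 100%, 100%, 79.1% and 100% in the SSCT F1 mice and 52.9%, 91.7%, 35.7%, 53.1% and 30.8% in control F1 (exact permutation p = 0.0317, unadjusted). The minus strand of the same mice read 60%, 13%, 80%, 28.0% and 88.1% against 31.5%, 14.3%, 48.6%, 27.5% and 100% (exact permutation p = 0.675, unadjusted). Thus SSCT F1 replicate 2 was fully methylated on the plus strand and 13% on the minus strand. Other such pairs lay inside Mdga1 (SSCT F1, chr17:29878221, higher in SSCT) and Csrp2 (SSCT F2/M, chr10:110931126, lower in SSCT).

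In SSCT F0 the median difference of the other strand was 0 where that of the called strand was 58.7 points, and of 130 strand calls the other strand had the same direction in 63, the opposite in 37 and a difference of 0 in 30. It exceeded 25 points in the called direction in 27.7%. With another pair within 10 bases (34 calls), the neighbour on the same strand differed by a median of 0.195 points and had the called direction in 52.9%. SSCT F0 replicate 3 was highest at the named pairs: at chr9:58488602 inside Insyn1, the plus strand read 0, 25% and 100% in the SSCT F0 mice and 0 in each control F0 mouse, and the minus strand 17.3%, 1.67% and 99.6% against 0, 7.77% and 0. Without SSCT F0 replicate 3, 63795 pairs could be tested in place of 1687, of which 3689 (5.78%) were called on either strand, 500 on both in the same direction (13.6%) and 58 in opposite directions. The median on the other strand was then 0.272 points, and its direction was that of the call in 50.5%.

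Whether the strand difference itself differed between groups was tested with limma on the per-mouse difference. It called 0 of 39756, 0 of 51236 and 0 of 54268 pairs (q under 0.05) against control F1, for SSCT F1 and then for both lines of SSCT F2. At an unadjusted p under 0.05 there were 796, 992 and 1161 pairs. Under the study's clustering names limma also called 0 in each, with 1238, 992 and 903 pairs at an unadjusted p under 0.05. No other tool was run for this test.

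Gene lists were read within 2000 bases of each gene span, beside a median absolute difference of 1.17 points and 1.71% called over all pairs. Of the genes that copy, read or erase methylation, 13 of 19 held 240 pairs, with a median absolute difference of 0.729 points and 3 of 173 tested pairs called. A couple 49 bases apart in Dnmt3b, a de novo methyltransferase gene, gave 2 of these, with 99.8% ± 0.730 on the plus and 46.5% ± 14.9 on the minus strand at chr2:153686573 and 5.43% ± 13.8 and 99.4% ± 2.31 at chr2:153686622 (SD, n = 13 mice). The remaining call lay at Tet3, a gene for a methylcytosine oxidase. None of the pairs tested at Dnmt1 (12), Uhrf1 (3), Dnmt3a (38) and Tet1 (14) was called.

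Genes of maternally methylated imprinted loci, whose control regions are unmethylated in sperm, held 254 pairs over the whole gene span at 22 of 23 genes, 225 of them under 10% and 10 over 90%, with medians of 1.44% and 1.06% on the plus and minus strands. Of 187 tested, 6 were called (3.21%), all in couples. At Peg10, a retrotransposon-derived gene of the placenta, chr6:4756162 was 89.1% ± 11.3 on the plus and 46.8% ± 12.2 on the minus strand (SD, n = 19 mice), with medians of 90.6% and 47.8%. Its facing CpG at chr6:4756210 was 39.1% ± 14.3 and 94.5% ± 7.86. At Inpp5f, a phosphoinositide phosphatase gene, chr7:128610223 was 87.8% and 9.31%, and at Cdh15, the M-cadherin gene, chr8:122857461 was 33.0% and 98.9%. The paternally methylated loci H19, Rasgrf1, Dlk1, Meg3 and Zdbf2, methylated in sperm at their control regions, held 66 pairs, but 62 of these were under 10% methylated, so that they could not serve as a marker of sperm here. None of 46 tested was called (logistic F test).

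Among germline genes, 15 of 21 held 95 pairs with a median absolute difference of 1.30 points and 0 of 75 called. Dazl, an RNA-binding protein gene of germ cells, read 0 on both strands in each of 18 mice at chr17:50292900. Of 12 genes for sperm chromatin and structure, 5 held 37 pairs, and 3 of 24 tested were called. A couple in Odf2, a sperm tail fibre gene, gave 94.0% ± 10.9 and 4.05% ± 6.60 at chr2:29893498 and 38.6% ± 16.7 and 97.9% ± 4.93 at chr2:29893546 (SD, n = 15 and 16 mice), and the other call lay at Tnp1, the transition protein 1 gene. Genes that the study picked for follow-up from these samples, and which are thus no independent list, held 34 pairs at Tal2, Gpx8, F930017D23Rik, Nudt1 and Lefty2 and none at Zfp229 and Gm6590, and 0 of 25 tested were called. At chr4:53779826 in Tal2, a transcription factor gene, the plus strand was 4.80%, 6.38%, 6.87% and 5.99% and the minus strand 5.77%, 0, 8.82% and 12.9% in control F1, in SSCT F1 and in the maternal and paternal SSCT F2 lines (means, n = 5). Over 20 mice the strands there ranged from 0 to 25% and from 0 to 27.5%, with the plus strand higher in 9 mice and the minus strand in 7.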

How the data were processed

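RRBS libraries were made by the authors with a commercial kit, sequenced as single reads of 50 bases, and processed, per the labels, with FastQC, Trim Galore 0.4.1, Bismark 0.20.0 and methylKit 1.7.0 on GRCm38. The authors deposited, per CpG position and strand, the fraction of methylated reads (0 to 1) and the coverage, a raw read count. Methylated reads were fraction times coverage and were not whole within 0.01 at 78 values. Strands were paired at neighbouring positions, and pairs were tested in Python 3.11.15 (numpy 2.4.6, pandas 2.3.3, scipy 1.17.1) and limma 3.58.1 (R 4.3.3), with Benjamini-Hochberg adjustment over each whole table and positions above the 99.9th percentile of coverage left out of group tests. Values in a library need 20 reads on each strand. Pairs named were the 12 largest differences per direction with the same sign in at least 15 mice, 1 per 1000 bases; per group comparison, the 3 pairs called on both strands in 1 direction with the largest smaller difference; and the gene lists. Members and lists were chosen with earlier results of these data known. Gene spans came from the RefSeq table of GRCm38.p6, which gives no exons. The procedures were tested on simulated data. Alternatives are given in the closing section. No libraries were duplicates (closest root mean square distance beyond counting error 8.39 points). Replicates are separate mice. One pair that the naming rule selected is not reported here.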

Additional observations from a re-analysis of the deposited data

Results flagged for a closer look

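In SSCT F2/P replicate 1 the mean difference of the plus strand minus the minus strand was -0.0528 points, apart from the other 4 mice of its group (-0.0145 to -0.000415). Of 40 groups of values checked in this way, this was the only such case, and chance gives about 1 in 20.

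The X chromosome, which took no part in the comparisons, held 443 CpG pairs that met the same coverage rule, and 7 of 210 tested were called (3.33%). They included 2 mirrored couples, both 49 bases apart, and 0 at any other distance from 2 to 150 bases.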

How the results depend on the processing

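The count of 2292 called pairs was 1201 with at least 30 reads, 4554 by a chi-square test without the spread between mice, 305 among the 8260 pairs measured in all mice and 568 with couples left out (chosen after seeing the data). Leaving out a mouse gave 2165 to 2253. Coverage rules, left out mice and left out couples also change the number of pairs tested, so that these counts are not shares of 1 total. The 305 are a higher share of their 8260 pairs than the 1.71% called over all tested pairs. The mean strand difference was -0.0115 (permutation p = 0.0595) with 10 reads, -0.0165 (p = 0.0858) with 30 reads and 0.0157 in pairs measured in all mice, and -0.0183 to -0.0135 without any 1 mouse. Discordance differences were -0.205 for SSCT F1, 0.192 and 0.650 for SSCT F2/M and 0.650 and 0.192 for SSCT F2/P under the study's clustering names and those with the SSCT F2 lines exchanged. Couples left out gave 0.465 for SSCT F1 and 0.0238 for SSCT F2/M, and the mean absolute difference, without subtraction of counting error, gave -0.371 for SSCT F0, where the root mean square without subtraction was 17.1 against 13.7. Leaving out a mouse gave 0.274 to 0.574 for SSCT F1 (exact permutation p = 0.0397 without SSCT F1 replicate 5 and 0.0476 without control F1 replicate 4), -0.387 to -0.0164, -0.507 to -0.293 and 2.05 to 5.91 for the others.

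Pairs called on at least 1 strand in SSCT F1, SSCT F2/M, SSCT F2/P and SSCT F0 were 34, 35, 39 and 63 with at least 20 reads, 0 in each by the F test and 4394, 4930, 5368 and 279 at over 10 points, and 14, 13 and 22 in the offspring with strands summed. On both strands they were 0, 0 and 0 in the offspring with 20 reads, 0 in each by the F test and 150, 186, 210 and 33 at over 10 points. Leaving out a mouse gave 402 to 475, 409 to 480, 464 to 541 and 121 to 3689 on at least 1 strand and 2 to 11, 3 to 8, 3 to 9 and 16 to 500 on both, the highest F0 counts without SSCT F0 replicate 3. The rule of 20 reads and the leaving out of a mouse change the number of pairs tested, so that these counts are not shares of 1 total. The interaction test gave 0 to 1 pair without a mouse, the 1 without control F1 replicate 3 (SSCT F1) or SSCT F2/M replicate 1.

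Replicate numbers did not pair the mice: deviations of same-numbered mice correlated at -0.0803 to 0.0414. With the replicate number as a block, 2, 3, 2 and 12 pairs were called on both strands and 285, 302, 331 and 102 on either. Discordance then gave exact permutation p of 0.125, 0.5, 0.188 and 0.5. With the signs of only 5 or 3 paired differences to flip, that permutation cannot give p under 0.05 and decides nothing here. No interaction was called with the block. The causes of these shifts were not tested. SSCT F0 depth limits every statement on that group.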
